A study of Mus musculus with 6 samples.

Results

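The genes described are 36 interferon-induced and MHC class I genes, taken as a named list from the 53640 gene symbols that all 6 libraries shared. All 36 were found, 35 had enough reads to be tested, and Zbp1 did not. RNA from the prefrontal cortex (PFC), lysed whole, of mice aged 6 months was sequenced in 3 groups of 2 libraries, described in the labels as biological duplicates. Treated tau mice were PS19 mice, whose human tau transgene (mutation P301S) is driven by the prion protein (Prnp) promoter, and received WDR5-0103, a small molecule that binds WDR5. Tau mice were PS19 mice given vehicle. Control mice had the C57BL/6 x C3H background without a transgene label and were given vehicle. WDR5 belongs to the enzyme complexes that place methyl groups on lysine 4 of histone H3. Dose, duration and sex are not given in the labels, and both PS19 groups carry the same transgene.

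Interferons are secreted proteins that cells release when they sense viral or misplaced nucleic acid. Type I interferon binds a receptor that activates JAK kinases, and these phosphorylate STAT proteins. STAT2 is among them and is found with IRF9 in a factor called ISGF3. ISGF3 binds a DNA element, the interferon-stimulated response element (ISRE), in the promoters of antiviral genes. In brain, microglia and endothelial cells are strong responders, and neurons and astrocytes respond too. MHC class I molecules present peptides of cell proteins to T cells and are raised by interferon. In mouse, the class I heavy chains H2-K1 and H2-D1 are encoded in the H2 region of chromosome 17. C57BL/6 and C3H mice carry different H2 haplotypes, and many inbred strains carry defective Mx1 and Mx2 alleles, so alleles at these loci can differ between mice of a mixed background.

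Promoter sequences of Ifit1, Gbp3 and H2-K1 are shown because they span the range found by the search: separate matches to an ISRE core, overlapping ones and no match. Each stretch runs from 150 to 21 bases before the RefSeq start on build GRCm38.p6, 5' to 3' on the gene's strand, with matches to the ISRE core in capitals. The core searched was GAAA, any 2 bases and GAAA again, on either strand; it reads TTTC, any 2 bases and TTTC in the stretches shown. The stretches lie at chr19:34640739-34640868 (plus strand) for Ifit1, chr3:142559894-142560023 (plus strand) for Gbp3 and chr17:34000368-34000497 (minus strand) for H2-K1.
Ifit1: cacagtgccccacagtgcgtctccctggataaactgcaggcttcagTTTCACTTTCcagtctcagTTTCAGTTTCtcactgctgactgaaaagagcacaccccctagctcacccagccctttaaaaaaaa
Gbp3: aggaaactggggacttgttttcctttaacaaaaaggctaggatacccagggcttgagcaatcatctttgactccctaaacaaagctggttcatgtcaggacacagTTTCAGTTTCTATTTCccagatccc
H2-K1: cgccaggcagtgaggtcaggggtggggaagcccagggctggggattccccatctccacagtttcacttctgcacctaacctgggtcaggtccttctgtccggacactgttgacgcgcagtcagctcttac
Ifit1 held 2 separate cores and Gbp3 held 2 that overlap. In the window of 250 bases before to 50 bases after the start, 13 of the 27 genes with a RefSeq window held the core on either strand: Ifih1, Eif2ak2, Oas1a, Stat2, Isg15, Ifit1, Ifit3, Rsad2, Bst2, Ifitm3, Gbp2, Gbp3 and Gbp7. That was 13 of their 32 windows (40.6%), against 1131 of 32851 windows of all genes (3.44%). The GAS element TTCNNNGAA, known from genes induced by interferon gamma, was found in 8 of the 32 windows (25%), against 8.3% of all windows. The core and the GAS element could overlap each other, and a match is only a match of letters. The search took exact letters only. A promoter without a match, such as that of H2-K1, can therefore still hold an ISRE that departs from the core.

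Several libraries stood apart in ways that touch these results. Library totals lay between 17690811 counts (tau 2) and 34774643 (treated tau 1). Prnp, whose promoter drives the transgene, had 1876 and 1594 CPM (counts scaled to library size) in treated tau, 1684 and 1472 in tau, and 1654 and 876 in control. The library labelled control 1 thus lay within the range of the PS19 libraries for Prnp, and control 2 lay below it. Prnp did not pass in tau against control (edgeR adjusted p = 0.638). Whether transgene reads count towards Prnp was not tested, so this value does not give the genotype of the library. It also held 122.7 CPM summed over 8 olfactory bulb markers, against 3.915 to 7.587 in the others. Tau 2 held 5673 CPM over 8 oligodendrocyte markers, against 1494 to 3028 elsewhere, and 229.6 over 8 striatal markers, against 85.42 to 127.7. Ddx3y, a Y-linked gene, was at 91.2 CPM or more in treated tau and the library labelled control 1 and at 0.391 or less in the others, while Xist, a female transcript, was at 186 CPM or more in tau and control 2 and at 2.43 or less in the rest. Sex and treatment therefore cannot be told apart in treated tau against tau. Nor can sex and group in treated tau against control once the library labelled control 1 is left out. With it included, the control libraries differ in these transcripts while those of each PS19 group do not. Excitatory cortical markers, as the label PFC implies, summed to 2294 to 2743 CPM. The library labelled control 1 and tau 2 enter every comparison with control or tau, so values without both of them are given as well.

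These genes were expressed at low to moderate levels in this tissue. Per kilobase of exon and averaged over the 6 libraries, Ifi27, which encodes a mitochondrial protein, had the highest level at 12.9 CPM per kb. H2-D1 followed at 6.83, then Ifit3 and Ifitm3 at 5.39 each, Ifit2 at 4.52, Stat2 at 4.47 and H2-K1 at 4.42. At the low end stood Ifi44 at 0.125, Mx1 at 0.122 and Zbp1 at 0.0236 CPM per kb. Zbp1, a sensor of Z-form nucleic acid, had 4 and 2 counts in treated tau, 2 and 4 in tau and 0 in both control libraries, where a count of 0 allows up to 3. Differences in the lowest of these genes therefore rest on few reads.

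Library by library, the genes lay highest in the library labelled control 1 and lowest in treated tau 2. The median deviation of the 35 tested genes from their own 6-library means was 0.05 in treated tau 1 and -0.24 in treated tau 2, 0.06 in tau 1 and -0.11 in tau 2, and 0.30 and 0.12 in control (the library labelled control 1 first), on the log2 scale. Summed CPM of the 36 genes were 209.6 and 166 in treated tau, 212.3 and 211 in tau, and 243.7 and 214.2 in control. Treated tau 2 had the lowest value of 6 for 16 of the 35 genes (45.7%), against 17.8% of all tested genes. The library labelled control 1 had the highest for 17 (48.6%), against 18.4% of all genes. Fewer responding cells and less RNA per cell cannot be told apart in bulk tissue.

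**Figure D1:**
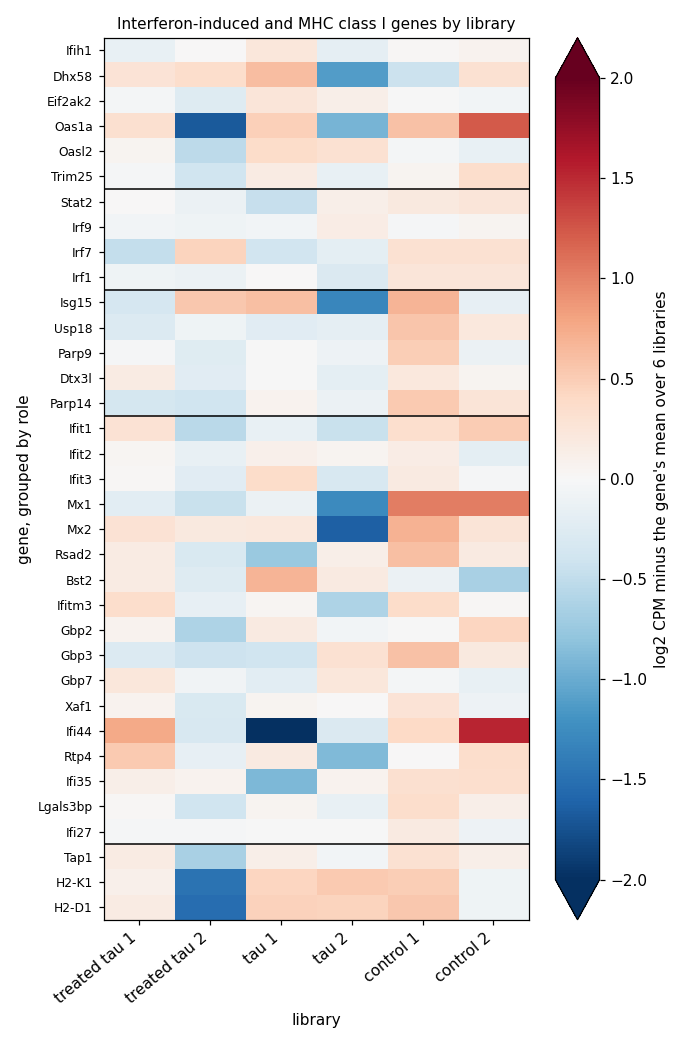
Colour shows log2 CPM minus the gene's mean over the 6 libraries for the 35 tested genes (rows, grouped by role: sensors, transcription factors, ISG15 and ADP-ribosylation, effectors, MHC class I) in each library (columns). The library labelled control 1 is the highest of 6 for 17 genes, and treated tau 2 is the lowest for 16.

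The first comparison, tau against control, asks about the effect of the transgene. No interferon-induced or MHC class I gene passed, although more of them lay lower than higher in tau. The genes furthest lower were Ifi44 (log2 fold change -2.45), Mx1 (-1.74), Oas1a (-1.05), Mx2 (-0.85), Ifi35 (-0.79), Rsad2 (-0.75) and Ifit1 (-0.70), all antiviral effectors or sensors. Bst2, which tethers budding virus particles to the cell, lay furthest higher (0.91). By edgeR's quasi-likelihood test 0 of 35 genes were called, where 0 of all 20694 (0%) were called, and limma-voom called 0 too. With DESeq2 23 of the 35 received an adjusted p, of which 0 were called, against 51 calls over all genes. Among those that received none were Ifi44, Mx1, Mx2, Oas1a and Bst2. At an unadjusted p under 0.05 there were 4 (Ifi44, Ifit1, Mx1 and Stat2), which is 11.4% of the genes against 9.95% of all. All 4 lay lower, as did 5.64% of all genes at that p. Log2 fold changes were below 0 for 24 of 35, with a median of -0.25, against 50.5% and -0.003 over all genes.

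Both tau libraries lay below both control libraries for 15 of the 35 genes (42.9%), against 21.3% of all genes. Both lay above for 3 (8.57%), Bst2, Eif2ak2 and Oasl2, against 20.3% of all. The lean towards lower values was smaller without the library labelled control 1 and tau 2: the median was then -0.05, with 21 of 35 below 0. The fit without them compares 1 tau library with 1 control library, each assumed to vary like the treated pair. In it the log2 fold change of tau against control was -0.695 for Stat2, -4.45 for Ifi44, -1.28 for Mx1, -0.66 for Ifit1, -0.96 for Rsad2, -0.23 for Irf1, -0.18 for Parp14, -0.05 for Mx2 and 1.43 for Bst2. edgeR gave Stat2 an adjusted p of 0.0737 (0.0737 to 0.879 over its alternatives) and Ifi44, with 2 reads in tau 1, one of 0.0547 (0.0547 to 0.712). It called 0 of 35, where 130 of all genes were called. Stat2, Ifi44 and Bst2 were thus further from 0 than with all 6 libraries, and Mx2 and Parp14 nearer to 0.

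The second comparison, treated tau against tau, asks about the effect of WDR5-0103 in transgenic tissue. No gene passed here either, and values lay on both sides of 0, with all 3 MHC class I genes below it. H2-K1 (-0.91) and H2-D1 (-0.86) lay furthest lower, followed by Oasl2 (-0.54) and Bst2 (-0.53), while Ifi44 (1.70), Mx2 (0.59) and Ifi35 (0.55) lay furthest higher. By edgeR 0 of 35 were called, where 779 of 20694 (3.76%) were, and neither DESeq2 nor limma-voom called any. One gene, H2-K1, was at an unadjusted p under 0.05 (1 of 35, 2.86%, against 12% of all genes). It lay lower, as did 4.44% of all genes at that p. Log2 fold changes were below 0 for 19 of 35 with a median of -0.07, against 51.3% and -0.006 over all genes. The libraries of the groups did not overlap for 9 genes that were lower (25.7%), against 20.1% of all, and for 0 that were higher, against 21.2%. Without the library labelled control 1 and tau 2 the median was -0.15, with 23 of 35 below 0.

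Treated tau was also compared with control, which crosses both the transgene and the compound. Here the genes lay mostly lower without passing. Mx1 (-1.54), Oas1a (-1.44), Parp14 (-0.77), Ifi44 (-0.75) and Gbp3 (-0.75) lay furthest lower, and Bst2 (0.38) and Dhx58 (0.35) furthest higher. edgeR called 0 of 35 (873 of 20694, or 4.22%, over all genes), as did DESeq2 and limma-voom. The fit of protein-coding genes only called 40 genes over all. The 3 genes at an unadjusted p under 0.05 were Gbp3, Mx1 and Parp14 (8.57%, against 16.3% of all). They lay lower, as did 8.09% of all genes at that p. Log2 fold changes were below 0 for 31 of 35, with a median of -0.27, against 51.2% and -0.007 over all genes. Both treated libraries lay below both control libraries for 14 genes (40%), against 23.3% of all, and above for 0, against 23%. Without the library labelled control 1 and tau 2 the median was -0.21, with 26 of 35 below 0. The values were then -1.53 for Mx1, -0.63 for Parp14 and -0.53 for Gbp3. In that fit sex and group cannot be told apart, as control 2 was the only control library left. Each comparison shares a group with each of the others, so their values are given side by side and are not independent.

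**Figure D2:**
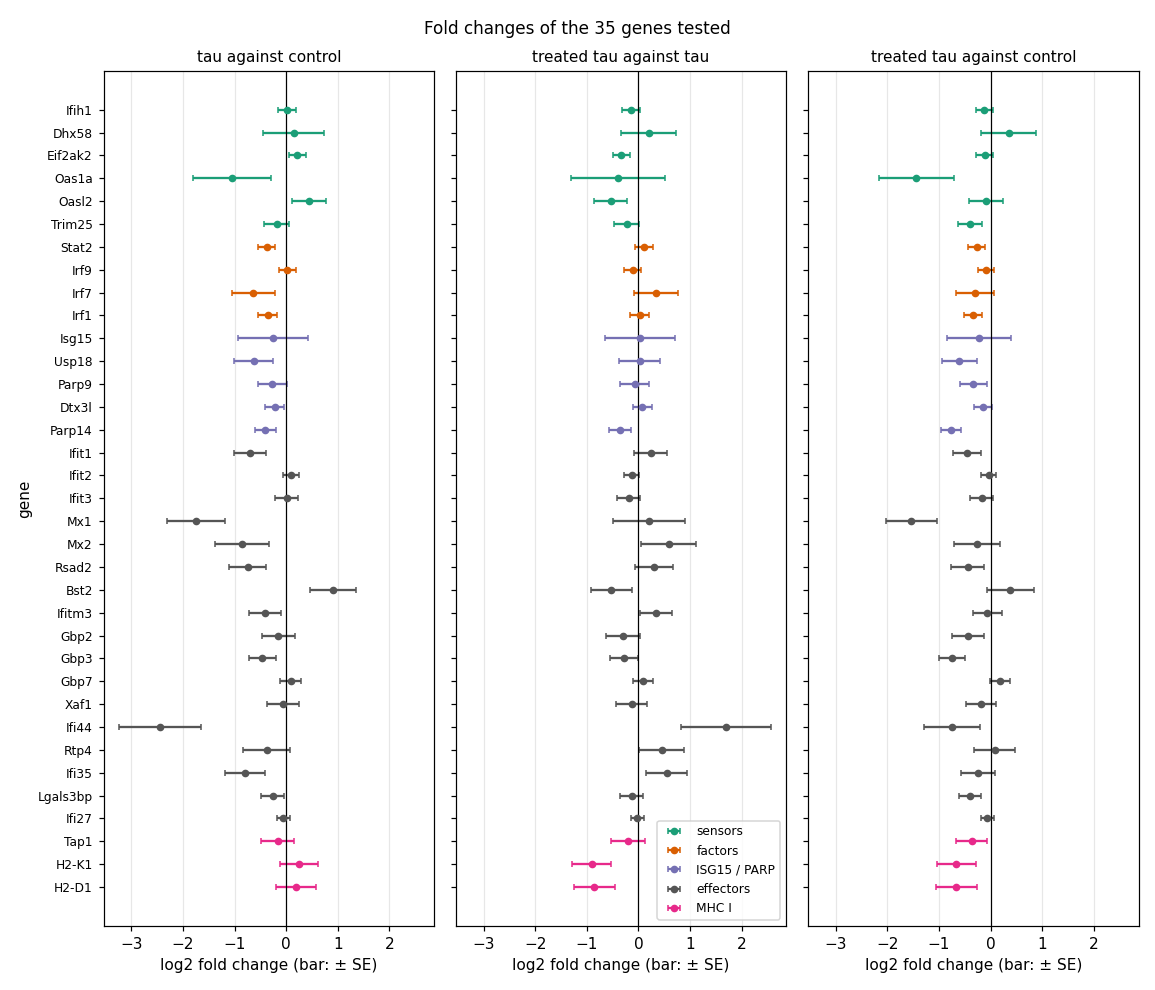
Log2 fold changes (points) with their SE (bars) of the 35 tested genes in each comparison, coloured by role. Points lie below 0 for 24 genes in tau against control, 19 in treated tau against tau and 31 in treated tau against control, and no gene passed in any panel.

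Among the sensors of foreign nucleic acid, 6 of 7 were tested, and their median log2 fold changes were 0.08 for tau against control, -0.28 for treated tau against tau and -0.12 for treated tau against control. Eif2ak2, the kinase PKR that halts translation on double-stranded RNA, had 8.39 and 7.16 CPM in treated tau, 10.2 and 9.40 in tau, and 8.60 and 8.31 in control. Both tau libraries were the highest of the 6. Its log2 fold change was 0.22 ± 0.16 (SE) for tau against control (adjusted p = 0.657) and -0.33 ± 0.16 for treated tau against tau (adjusted p = 0.482). Oasl2, an oligoadenylate synthetase-like protein, showed the same order, with 1.81 and 1.19 CPM in treated tau, 2.27 and 2.18 in tau, and 1.70 and 1.57 in control. Its values were 0.45 ± 0.33 and -0.54 ± 0.32 in those comparisons (adjusted p = 0.647 and 0.602). Oas1a, which makes chains of linked adenylate when it binds double-stranded RNA, rested on few reads: 13 counts and 1 count in treated tau, 11 and 2 in tau, and 12 and 20 in control. With 57.6% of its 50-mers found also in Oas1g and Oas1b, reads could be split between these copies, and its adjusted p against control was 0.641 for tau and 0.379 for treated tau. The RNA helicases Ifih1 and Dhx58 and the ubiquitin ligase Trim25, which activates RNA sensing, were spread over 1.33-fold, 3.96-fold and 1.70-fold between the highest and lowest library.

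The transcription factors that carry the signal differed by small amounts. Stat2, a component of ISGF3 (chromosome 10), had 26.3 and 24.1 CPM in treated tau, 19.0 and 28.5 in tau, and 30.1 and 30.9 in control. Both control libraries lay above all 4 PS19 libraries, and the tau libraries lay further apart than those of the other groups. The log2 fold change of Stat2 was -0.38 ± 0.17 for tau against control (adjusted p = 0.493), 0.11 ± 0.17 for treated tau against tau and -0.27 ± 0.16 for treated tau against control (adjusted p = 0.458). Irf9, its DNA-binding partner, hardly varied: 7.48 and 7.35 CPM in treated tau, 7.51 and 8.65 in tau, and 7.66 and 8.11 in control, a span of 1.18-fold. Its adjusted p was 0.979, 0.897 and 0.843 in tau against control, treated tau against tau and treated tau against control. The exons of Irf9 overlap those of Rnf31 on the same strand, so some reads could belong to either.

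Irf7, which amplifies type I interferon production, had 1.02 and 2.01 CPM in treated tau, 1.10 and 1.26 in tau, and 1.82 and 1.80 in control. Treated tau 1 was the lowest library and treated tau 2 the highest, while both tau libraries lay below both control libraries (log2 fold change -0.64 ± 0.42, adjusted p = 0.613). Irf7 shares exons with Phrf1 on the opposite strand, and the strand setting of the counting is not given. Irf1, a factor induced above all by interferon gamma, had 5.90 and 5.78 CPM in treated tau, 6.26 and 5.10 in tau, and 7.38 and 7.37 in control. All PS19 libraries thus lay below both control libraries, with -0.36 ± 0.19 for tau and -0.34 ± 0.18 for treated tau against control (adjusted p = 0.537 and 0.395).

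Genes of ISG15 and ADP-ribosylation lay below 0 in all 5 cases in both comparisons with control, with medians of -0.27 for tau and -0.34 for treated tau. Parp14, a mono-ADP-ribosyltransferase (chromosome 16, 35832874 to 35871544), came nearest to a call. It had 4.09 and 3.95 CPM in treated tau, 5.48 and 4.81 in tau, and 7.54 and 6.23 in control, so the 3 groups did not overlap. The log2 fold change was -0.77 ± 0.20 for treated tau against control (adjusted p = 0.0649), -0.41 ± 0.20 for tau against control (adjusted p = 0.519) and -0.37 ± 0.21 for treated tau against tau (adjusted p = 0.591). It passed in 1 of 17 alternatives (library size only, adjusted p = 0.0481; range over all 0.0481 to 0.282). Usp18, which strips ISG15 from proteins and dampens receptor signalling, had 0.906 and 1.04 CPM in treated tau, 0.939 and 0.974 in tau, and 1.66 and 1.29 in control. All PS19 libraries lay below both control libraries, with adjusted p = 0.582 for tau and 0.437 for treated tau against control. Isg15, a ubiquitin-like modifier, varied 5.28-fold between libraries with overlap of all groups. Parp9 and its partner Dtx3l lie head to head on opposite strands and share 7.71% and 8.09% of their 50-mers.

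The 17 effectors had median log2 fold changes of -0.38 for tau against control, 0.09 for treated tau against tau and -0.25 for treated tau against control, with 13, 8 and 14 of them below 0. Mx1, a dynamin-like GTPase that blocks influenza virus in its functional form (chromosome 16, 97447035 to 97462907), had 0.322 and 0.261 CPM in treated tau, 0.352 and 0.115 in tau, and 0.868 and 0.862 in control. In reads this was 11 and 7, 9 and 2, and 22 and 22. Both control libraries lay above all 4 PS19 libraries. The log2 fold change was -1.74 ± 0.56 for tau (adjusted p = 0.441) and -1.54 ± 0.49 for treated tau (adjusted p = 0.145) against control, and 0.20 ± 0.69 for treated tau against tau. Mx2, its neighbour and an annotated polymorphic pseudogene, had 1.08 and 1.01 CPM in treated tau, 1.02 and 0.229 in tau, and 1.46 and 1.06 in control. Tau 2 alone was low, and the other libraries lay within 1.01 to 1.46 CPM. Its adjusted p was 0.59, 0.779 and 0.827 in tau against control, treated tau against tau and treated tau against control. No source used here gives the Mx alleles of each mouse, and their part in these values was not tested.

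**Figure D3:**
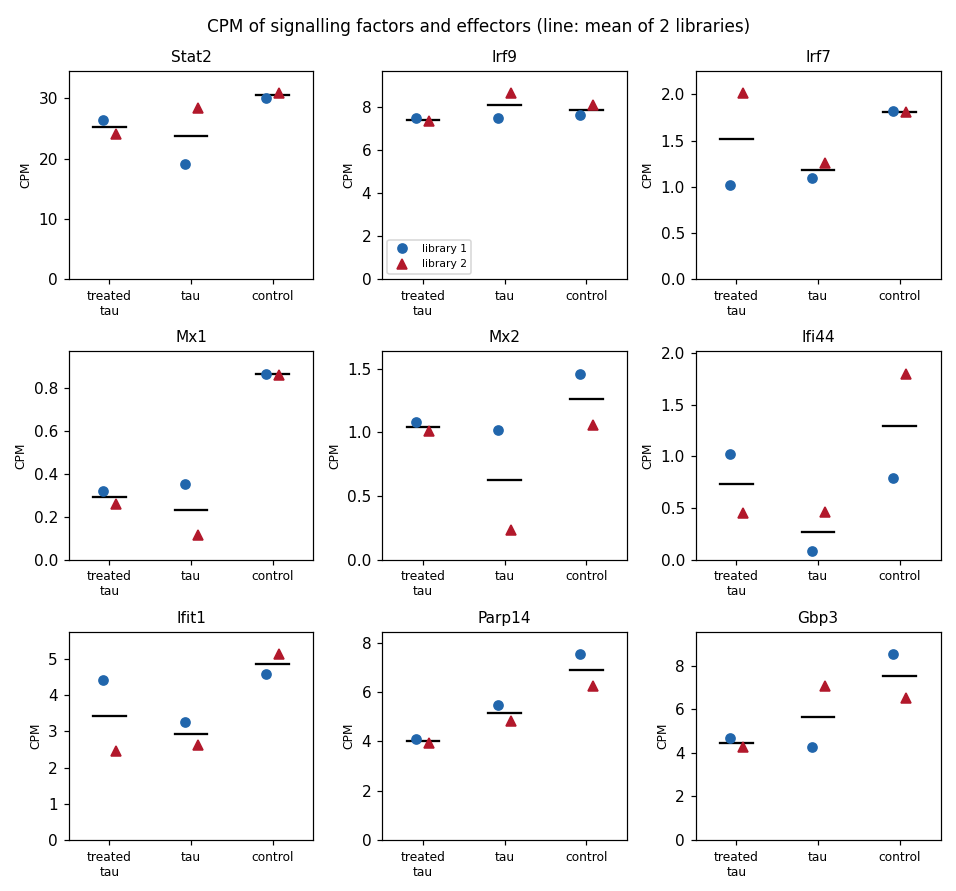
CPM per library (circle, library 1; triangle, library 2) and group mean (line) of 3 signalling factors, 5 effectors and Parp14, with treated tau left, tau in the middle and control right. Both control libraries lie above all PS19 libraries for Stat2, Mx1, Ifit1 and Parp14, and the tau libraries lie far apart for Stat2, Mx1, Mx2, Ifi44 and Gbp3.

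Ifit1, which binds viral RNA whose cap is not fully methylated (chromosome 19, 34640871 to 34650009), had 4.41 and 2.46 CPM in treated tau, 3.25 and 2.64 in tau, and 4.58 and 5.14 in control. Its ISRE cores are those shown above. All PS19 libraries lay below both control libraries (-0.70 ± 0.31 for tau, adjusted p = 0.496, and -0.46 ± 0.28 for treated tau, adjusted p = 0.465), and treated tau 1 was close to the library labelled control 1. Its neighbours Ifit2 and Ifit3 varied only 1.27-fold and 1.62-fold between libraries, with the groups overlapping in tau against control. Ifit3 shares 51.2% of its 50-mers with Ifit3b. Rsad2 (viperin), which makes a chain-ending nucleotide, had 2.72 and 1.94 CPM in treated tau, 1.41 and 2.64 in tau, and 3.71 and 2.74 in control. Both control libraries lay highest, with control 2 just above treated tau 1 (adjusted p = 0.519 for tau and 0.549 for treated tau against control). Ifi44 had 1.02 and 0.447 CPM in treated tau, 0.0782 and 0.459 in tau, and 0.789 and 1.80 in control, with 2 reads in tau 1. The tau libraries lay below both control libraries, while treated tau 1 lay within the control range and treated tau 2 within the tau range (adjusted p = 0.514 in treated tau against tau and 0.441 in tau against control).

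Gbp3, a guanylate-binding GTPase induced by interferon gamma (chromosome 3, 142560026 to 142573209), had 4.68 and 4.25 CPM in treated tau, 4.26 and 7.05 in tau, and 8.52 and 6.51 in control. Treated tau lay below control (-0.75 ± 0.25, adjusted p = 0.163), while tau 2 lay within the control range (-0.46 ± 0.26 for tau against control, adjusted p = 0.561). That value was -0.0874 without tau 1 and -0.815 without tau 2. Gbp2 and Gbp7 overlapped between groups in every comparison, and Gbp7 was higher in treated tau than in control by 0.18 ± 0.19. Bst2 had 1.02 and 0.746 CPM in treated tau, 1.49 and 1.03 in tau, and 0.829 and 0.549 in control. Tau lay above control without overlap (0.91 ± 0.44, adjusted p = 0.519), and both treated libraries lay below tau, treated tau 1 only just (-0.53 ± 0.40, adjusted p = 0.721). Lgals3bp, a secreted glycoprotein, had 5.41 and 4.03 CPM in treated tau, 5.55 and 4.81 in tau, and 6.79 and 5.76 in control, with both control libraries highest (adjusted p = 0.695 for tau and 0.411 for treated tau against control). The other effectors, Ifi27, Ifitm3, Xaf1, Rtp4 and Ifi35, spread from 1.21-fold for Ifi27 to 2.85-fold for Rtp4 between libraries.

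MHC class I genes set 1 library apart. H2-K1 had 12.8 CPM in treated tau 1 and 4.21 in treated tau 2, 15.9 and 17.1 in tau, and 16.7 and 11.2 in control. H2-D1 had 18.0 and 5.52 CPM in treated tau, 22 and 21.8 in tau, and 23.3 and 15.1 in control. Treated tau 2 was the lowest library for both heavy chains. Both treated libraries lay below both tau libraries, while treated tau 1 lay within the control range. For H2-K1 the log2 fold change was -0.91 ± 0.38 for treated tau against tau (adjusted p = 0.362), -0.66 ± 0.38 for treated tau against control (adjusted p = 0.434) and 0.24 ± 0.37 for tau against control (adjusted p = 0.836). For H2-D1 the values were -0.86 ± 0.40 (adjusted p = 0.44), -0.67 ± 0.39 (adjusted p = 0.457) and 0.19 ± 0.39 (adjusted p = 0.886) in the same order.

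One library decided the size of this difference. Without treated tau 1, H2-K1 and H2-D1 passed against tau (-1.96 and -1.99, adjusted p = 0.0123 and 0.011) and against control (-1.72 and -1.79, adjusted p = 0.0206 and 0.0158), with treated tau 2 as the only treated library and assumed to vary like the others. Without treated tau 2 the values were -0.36 and -0.28 against tau and -0.12 and -0.09 against control. Over the 17 alternatives the adjusted p of H2-K1 ranged from 0.0123 to 0.959 against tau and from 0.0206 to 0.915 against control, and that of H2-D1 from 0.011 to 1 and from 0.0158 to 0.943.

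Low values in treated tau 2 were also found for other genes of the H2 region of chromosome 17. The 18 tested genes there of the class I and class II pathways included H2-K1, H2-D1 and Tap1. This library was the lowest of 6 for 13 of the 18 (72.2%). The share was 17.8% of all tested genes and 45.7% of the 35 interferon-induced and MHC class I genes. The 13 include H2-K1, H2-D1 and Tap1 themselves. The 18 came from lists chosen with earlier results known and are not all genes of the region, so the share is no test of it. Among the 13 were H2-T23, with 11.7 CPM in treated tau 1 and 6.49 in treated tau 2, H2-T22 with 10.7 and 6.60, and H2-Aa, a class II chain, with 0.760 and 0.224. Tapbp, H2-DMa, Tap2, H2-Q4 and H2-M3 were lowest in a tau library instead. Some of the 13 rest on few reads: H2-Aa, H2-DMb1 and H2-Q6 had 6, 3 and 1 in treated tau 2. Some genes on other chromosomes, among them Parp12, Gbp9 and Psme2, were lowest in treated tau 2 as well. For Psme2 the treated libraries were nearly equal (2.08 and 2.05 CPM). These genes were picked from the lists, and the share of such genes outside the region was not counted. Tap1, the peptide transporter subunit, had 2.86 and 1.60 CPM in treated tau, 2.78 and 2.46 in tau, and 3.16 and 2.78 in control, and its exons overlap Psmb9 on the opposite strand. B2m, the light chain gene on chromosome 2, had 46.4 and 33.4 CPM in treated tau, 41.4 and 51.4 in tau, and 37.0 and 39.4 in control, so it was also lowest in treated tau 2, by less. As a percentage of B2m counts, H2-K1 was 27.5 and 12.6 in treated tau, 38.5 and 33.4 in tau, and 45 and 28.4 in control. The H2-K1 to H2-D1 count ratio stayed between 0.711 and 0.785 in all 6 libraries. Between 9.63% (H2-K1) and 12.8% (H2-D1) of their 50-mers occur in other class I genes. Which H2 haplotype each mouse carried is not given in the sources used here, and its part in these values was not tested.

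**Figure D4:**
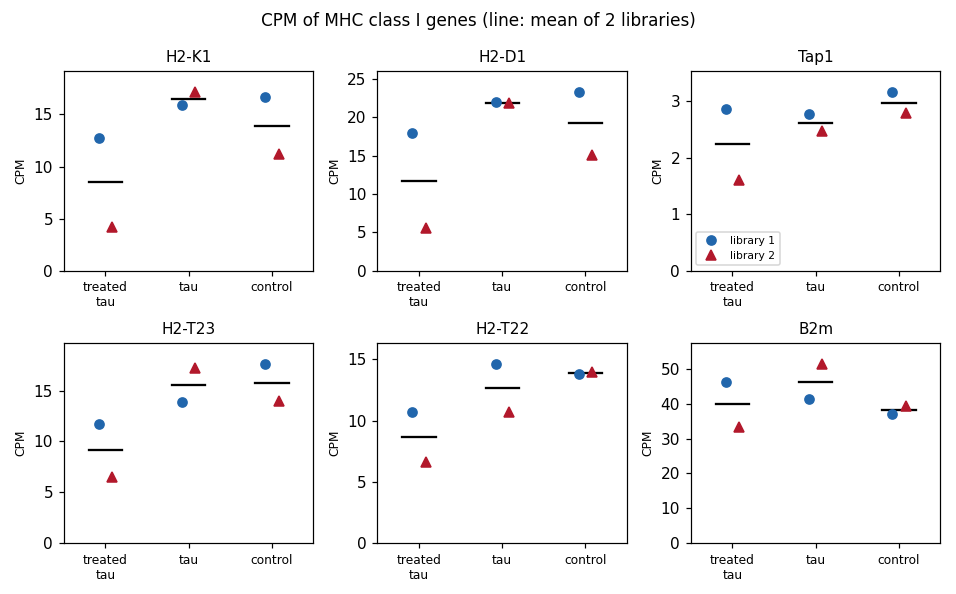
CPM per library (circle, library 1; triangle, library 2) and group mean (line) of H2-K1, H2-D1, Tap1, H2-T23, H2-T22 and B2m, with treated tau left, tau in the middle and control right. Treated tau 2 is the lowest of the 6 libraries in every panel, at 4.21 CPM for H2-K1 and 33.4 CPM for B2m.

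Other genes of the pathway were read from lists chosen with earlier results known. Of 13 genes of the receptors and their signalling, among them Stat3 and the feedback regulators Socs1 and Socs3, none was called in any comparison, and medians lay between -0.003 and 0.03. Those of smallest p were the receptor chain Il10rb (-0.504), Jak1 (0.122) and Tyk2 (-0.244) in tau against control. In treated tau against tau they included Il10rb (0.477) and the inhibitor Socs1 (-0.568), and in treated tau against control Jak1 (0.147) and Jak2 (0.165), all as log2 fold changes. Of 15 further genes of nucleic acid sensing none was called, and medians were -0.10, 0.10 and -0.04 in tau against control, treated tau against tau and treated tau against control. Besides Ddx58, the genes of smallest p included the kinases Tbk1 (0.181) and Ikbke (-0.918) in the first, Mavs, an adaptor of RNA sensors (-0.395), Tlr7 (0.442) and Tbk1 (-0.119) in the second and Tlr3 (-0.305) in the third. Ddx58, the RNA sensor RIG-I, had 5.55 and 4.85 CPM in treated tau, 5.01 and 5.62 in tau, and 7.06 and 6.98 in control, so both control libraries lay highest (adjusted p = 0.506 for tau and 0.277 for treated tau against control).

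Of 49 other interferon-induced genes, 39 were tested, with 26, 30 and 31 below 0 in tau against control, treated tau against tau and treated tau against control, and medians of -0.07, -0.24 and -0.45. One was called: Ifi27l2a, a relative of Ifi27, fell in treated tau against control. It had 0.351 and 0.0746 CPM in treated tau, 0.313 and 0.229 in tau, and 1.34 and 1.02 in control, with 2 reads in treated tau 2. Both control libraries lay far above all PS19 libraries. The log2 fold change was -2.34 ± 0.55 (adjusted p = 0.0444) for treated tau and -2.06 ± 0.58 (adjusted p = 0.441) for tau against control. The call was lost in 12 of the 16 alternatives that gave it a value (adjusted p from 0.038 to 0.291), among them each of the 6 that left out 1 library. Besides it and Iigp1, the smallest p belonged to Ifit1bl1 (0.41) in tau against control and to Trim34a (-1.25), Trim21 (-0.663) and Lgals9 (-0.888) in treated tau against tau. Iigp1, a GTPase that attacks the vacuoles of parasites, had 1.52 and 1.57 CPM in treated tau, 1.41 and 1.38 in tau, and 3.32 and 2.08 in control (adjusted p = 0.452 for tau and 0.24 for treated tau against control).

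A list of 22 further tested genes of the class I pathway held chaperones and proteasome subunits besides class I genes. Of these 22, 16 lay below 0 in treated tau against tau and 15 in treated tau against control. The medians were -0.18 and -0.22, and none was called. Psme2, an activator of the proteasome, had 2.08 and 2.05 CPM in treated tau, 4.93 and 3.21 in tau, and 3.39 and 4.19 in control. Both treated libraries lay lowest, and the adjusted p was 0.116 against tau and 0.154 against control. H2-T23, a non-classical class I gene, had log2 fold changes of -0.73 against tau and -0.765 against control (adjusted p = 0.229 and 0.146), and H2-T22 of -0.66 against control (adjusted p = 0.169). H2-Q6 had 0.351 and 0.0373 CPM in treated tau, 0.587 and 1.03 in tau, and 0.316 and 0.196 in control, with a single read in treated tau 2. In tau against control 11 of the 22 lay below 0 with a median of -0.007, and the chaperones Canx (0.171) and Calr (0.205) had the smallest p with H2-Q6. Of 7 class II genes, 6 and 7 lay below 0 in those comparisons, with medians of -0.81 and -0.86, and none was called. In tau against control 5 of the 7 lay below 0 (median -0.14). Those of smallest p were H2-DMa (-0.465), the class II activator Ciita (-0.48) and H2-Aa (-0.555) in tau against control, H2-Ab1 (-1.19), Cd74 (-0.814) and H2-Eb1 (-0.823) in treated tau against tau, and H2-Aa (-1.45), Ciita (-0.864) and H2-Ab1 (-1.07) in treated tau against control.

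Markers of cells that respond strongly to interferon were read beside these values. All 10 microglial markers were tested, and they summed to 346.9 to 354.2 CPM in treated tau, 354.6 to 391.2 in tau and 311.7 to 352 in control. Of them, 8 lay above 0 in tau against control and 8 in treated tau against control (medians 0.20 and 0.08). In treated tau against tau 2 did (median -0.05). The 10 endothelial and mural markers summed to 276.2 to 334.1, 287.4 to 314.5 and 327.3 to 329.9 CPM in treated tau, tau and control. One of them was called: Cldn5, a tight junction protein of endothelial cells, rose in treated tau against tau by 0.88 ± 0.19 on the log2 scale (edgeR adjusted p = 0.0286). In that comparison 5 of the 10 markers lay above 0 and 5 below, with a median of 0.06. The alternatives were not read for Cldn5. Cldn5 had 20.0 and 22.7 CPM in treated tau, 12.5 and 10.3 in tau, and 26.1 and 18.6 in control. Both tau libraries were the lowest of the 6, and the value for tau against control was -0.95 ± 0.19 (adjusted p = 0.441). The 8 meningeal and fibroblast markers summed to 36.43 to 59.33, 37.14 to 65.35 and 45.31 to 66.6 CPM. Treated tau 2 held the lowest endothelial and the lowest meningeal sum. Of 10 markers of blood cells 4 were tested, and all 10 summed to 44.93 to 48.43, 31.81 to 60.66 and 53.43 to 54.86 CPM, most of it from the red cell globins Hbb-bs and Hba-a1. Ptprc, the leukocyte antigen CD45 that microglia also carry, had 5.67 and 4.03 CPM in treated tau, 4.97 and 4.36 in tau, and 8.37 and 6.04 in control. All PS19 libraries lay below both control libraries for Ptprc, without passing (-0.61 ± 0.25 for tau, adjusted p = 0.479, and -0.55 ± 0.23 for treated tau, adjusted p = 0.281). Of the 4 tested blood markers, Ptprc among them, 3 lay below 0 in tau against control and 2 in treated tau against control. The other 2 lay above 0 in treated tau against control. Most of the microglial markers lay above 0 in both of these comparisons. The T cell marker Trbc1 had 3 and 5 counts in treated tau, 4 and 0 in tau, and 11 and 2 in control, and the neutrophil marker S100a8 had 17 and 3, 0 and 2, and 6 and 4 counts in treated tau, tau and control. Cd3e, Ms4a1 and Nkg7, markers of T, B and NK cells, had at most 2 counts in every library. The part of cell makeup in the values above was not tested.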

How the data were processed

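RNA was sequenced in 6 libraries. Per the labels' protocols, rRNA-depleted stranded libraries were made, and Cutadapt and TopHat2 did the trimming and alignment. Per the submitters' processing notes, SAMtools, featureCounts and edgeR were also used, with build mm10. No source used here gives versions or the strand setting. Each deposited file gives raw, whole-number counts per gene symbol. There were 54134 symbols in treated tau files and 54429 in tau and control files. Only the 53640 shared ones were used, and the rest held 0.333% to 0.352% of counts.

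Genes passing filterByExpr (minimum count 10) were TMM-scaled and given edgeR's quasi-likelihood test (version 4.0.16, R 4.3.3; two-sided; one fit, 3 residual degrees of freedom), adjusted by Benjamini-Hochberg over 20694 genes and called under 0.05. CPM are TMM-scaled. P-values measure the spread between these libraries, and floors cover counting error only, as no molecular identifiers were used. DESeq2 1.42.0, limma 3.58.1, other scalings, filters and left-out libraries were alternatives. Exon lengths, positions and shared 50-mers came from GENCODE M21; promoters came from RefSeq. Members and gene lists were chosen with earlier results of these data known. Given in full were Mx1, Mx2, H2-K1, H2-D1, Stat2, Irf9, Irf7, members called, and per comparison the 6 of smallest p without overlap; Usp18 and Tap1 were added after their values were seen. Values of some genes on the lists are not reported here. The fit was tested on simulated data.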

Additional observations from a re-analysis of the deposited data

How the results depend on the processing

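Of 17 alternatives per comparison (11 settings and 6 that left out 1 library), the count of interferon-induced and MHC class I genes called was 0 in all 17 for tau against control, in 16 for treated tau against tau and in 15 for treated tau against control. DESeq2 gave an adjusted p to 23 of the 35 in tau against control. The exceptions were 1 gene for treated tau against control with library size only and 2 genes in both treated comparisons without treated tau 1, so that leaving out 1 library gave 0 to 2. The median log2 fold change ranged from -0.327 to -0.0548, from -0.147 to 0.0309 and from -0.368 to -0.162 in tau against control, treated tau against tau and treated tau against control. The value of -0.0548 came without the library labelled control 1 and tau 2. Over all genes, DESeq2 called 51 in tau against control, the fit of protein-coding genes only called 45 in treated tau against tau and 40 in treated tau against control, and leaving out the library labelled control 1 and tau 2 gave 130 in tau against control. Leaving out 1 library gave 0 to 98, 355 to 840 and 494 to 816 genes.

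Signs of uncalled values turned in several fits, those that left out 1 library among them, and not only near 0. Irf9 in tau against control was -0.00102 with upper quartile scaling, -0.0205 with library size only, -0.00286 with protein-coding genes only and -0.109 without the library labelled control 1 and tau 2. In treated tau against tau, Irf1 was -0.00203 with library size only, and without the library labelled control 1 and tau 2 it was -0.0969, Mx1 -0.251 and Gbp3 0.0727. Leaving out 1 library gave, in tau against control, -0.0681 to 0.139 for Irf9, -0.0164 to 0.563 for H2-K1 and -0.0866 to 0.538 for H2-D1. In treated tau against tau the ranges were -0.172 to 0.411 for Stat2, -0.155 to 0.751 for Rsad2, -2.85 to 0.969 for Oas1a, -0.249 to 1.33 for Mx1, -0.652 to 0.0755 for Gbp3, -0.0944 to 0.197 for Irf1, -0.275 to 0.565 for Ifit1, -0.182 to 0.793 for Irf7, -0.373 to 0.0503 for Lgals3bp and -1.83 to 0.329 for Ifi27l2a. In treated tau against control they were -0.814 to 0.161 for Irf7 and -0.444 to 0.156 for Oasl2. The cause of these changes was not tested. With the replicate block 0, 709 and 796 genes were called over all genes, and 0 of the 35. Correlations between libraries of the same number were 0.0101, -0.00799 and 0.0733, so the numbers were not taken as pairs. These numbers are those of the sample titles. The headers of the deposited counts give other numbers for some libraries, such as OWT-3 for control 2 and Tau-2 for tau 1. With 2 libraries a group and as few as 1 or 2 reads in a library, genes such as Oas1a, Ifi44 and Mx1 are limited by depth.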
